A study of Mus musculus with 3 samples.

Results

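Mast cells of the mouse aorta made up 69 of the 5894 cells that could be assigned to 1 of 10 mice, a share of 1.17%. They were chosen by their transcripts: at least 10 UMIs (unique transcript molecules) of Cpa3, Mcpt4 and Cma1 summed, at least 1 UMI of Kit, fewer than 10 UMIs of C1qa, C1qb and C1qc per 10000, and none of Cd79a or Cd3e. Of 8471 barcodes, 7196 had a leading hashtag of at least 3 times the next, 6098 of these had at most 10% mitochondrial UMIs, and 5894 also had at least 1000 gene UMIs. The protease limit then kept 78 cells, Kit 75, the C1q limit 71, and the lymphocyte genes 69.

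The study hashed the aortic leukocytes of 10 C57BL/6 mice, pooled them, sorted viable CD45+ cells without those stained by antibody injected into the blood, and read transcripts and surface antibodies in a single 10x run. The 5 Jak2WT mice were littermate controls, and the 5 Jak2V617F Myel mice carried the Jak2V617F Flex/WT allele with LysM-Cre, which recombines in myeloid cells. Of the latter, 3 had a dilated aorta and 2 an aneurysm. The mice were untreated, both sexes were used in the study's experiments, and age is not given in the sources used here. The sort was adjusted so that each genotype gave about the same number of cells, so numbers of cells cannot be compared between genotypes, and shares within a mouse were compared instead. Mice are named here by their hashtag: 1 to 5 Jak2WT, 6, 8 and 10 dilation, 7 and 9 aneurysm.

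Mast cells mature in tissues under stem cell factor, the ligand of the receptor tyrosine kinase Kit (CD117). They store proteases, histamine and serotonin in granules that are packed on the heparin chains of serglycin, and they release them when IgE bound to the receptor FceRI is crosslinked or when receptors such as Mrgprb2 are engaged. Connective tissue mast cells, the kind found around vessels, make the chymases Mcpt4 and Cma1, tryptases and carboxypeptidase A3, and the receptor kinase Kit signals in part through Jak2.

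The 3 genes that chose the cells are shown by the sequence around their start, because their transcripts define the cells and their windows were searched for words bound by GATA factors, which direct mast cell genes. Each RefSeq window on GRCm38.p6 runs from 250 bases before the start to 50 after it, 5′ to 3′ on the minus strand. Cpa3 lies at chr3:20242132-20242431, Mcpt4 at chr14:56062261-56062560 and Cma1 at chr14:55944626-55944925. Capitals mark the word AGATAA, its variant AGATAG, the word TGATAA or its variant TGATAG, on either strand.
Cpa3: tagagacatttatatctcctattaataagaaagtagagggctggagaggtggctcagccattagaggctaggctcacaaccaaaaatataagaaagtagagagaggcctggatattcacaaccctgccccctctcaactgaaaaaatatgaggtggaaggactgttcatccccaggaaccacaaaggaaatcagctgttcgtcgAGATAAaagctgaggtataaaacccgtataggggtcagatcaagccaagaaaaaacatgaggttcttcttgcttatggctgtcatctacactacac
Mcpt4: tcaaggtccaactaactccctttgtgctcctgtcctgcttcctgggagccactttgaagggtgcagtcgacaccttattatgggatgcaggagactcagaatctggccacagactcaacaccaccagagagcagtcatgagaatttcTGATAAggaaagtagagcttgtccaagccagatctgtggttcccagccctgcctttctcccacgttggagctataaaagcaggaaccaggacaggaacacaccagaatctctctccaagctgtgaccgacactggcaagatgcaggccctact
Cma1: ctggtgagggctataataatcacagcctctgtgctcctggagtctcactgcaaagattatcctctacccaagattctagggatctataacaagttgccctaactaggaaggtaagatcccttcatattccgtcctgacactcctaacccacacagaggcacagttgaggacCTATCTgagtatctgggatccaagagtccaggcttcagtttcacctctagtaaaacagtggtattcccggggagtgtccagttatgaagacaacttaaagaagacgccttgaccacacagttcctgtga
Each of the 3 windows held 1 such word. Of the 15 transcripts that led the mast cells, described below, 13 were in the RefSeq table with 17 windows, since a gene can have more than 1. A GATA word was in 10 of the 17 windows (58.8%), against 29.8% of all 32851 windows, and 10 of the 13 genes (76.9%) had a window with one, against 33.0% of all 27025 genes. The E-box word CACATG and its palindromic form CACGTG, of the kind that the factor Mitf binds, were in 1 of the 17 windows (5.88%, that of Fcer1a) and in 20.4% of all windows. A match to these letters is a description of the window and not a site.

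The limits on the protease genes lay in a wide gap. The summed UMIs of Cpa3, Mcpt4 and Cma1 ran from 28 to 1427 per mast cell (median 226), the next lowest cells had 35 and 39, and the highest cell below the limit that met the other criteria had 6. Kit ran from 1 to 41 UMIs (median 5), with 10 mast cells at a single Kit UMI. The highest C1q level inside the limit was 9.36 per 10000, and 37 mast cells had no C1q UMI. Of the 9 cells that passed the protease limit and were left out, 3 had no Kit UMI, 4 were above the C1q limit and 2 had Cd79a or Cd3e UMIs. Their CD117 antibody counts were 102, 33 and 88 in the cells of Jak2WT mice 2, 3 and 5. They were 15, 47, 73 and 22 in cells of mice 10, 6, 8 and 9, and 0 in the cell of mouse 1 and another of mouse 6. The shares given below are without these cells, and no alternative changed the C1q or lymphocyte limits.

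The lowest ratio of the leading to the second hashtag was 3.24 and the median 69.7. HTODemux called 60 of the 69 singlets of the same mouse and 9 doublets. Over all cells within the same quality limits, its singlets of the leading hashtag were 3009 in Jak2V617F Myel and 1710 in Jak2WT. The hashtag ratio assigned 3799 and 2095. No barcode occurred more than 1 time in the run.

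Mast cells were small libraries. Their median was 2857 gene UMIs (1082 to 25460) and 1221 genes, against 9378 UMIs and 2576 genes in the other 5825 assigned cells, while their median antibody count was higher (2947 against 1097). Median mitochondrial shares were 2.70% in mast cells and 2.36% in other cells over all mice, with 4.36% against 2.20% in mouse 2, 6.89% against 2.87% in mouse 5 and 1.23% against 2.77% in mouse 3.

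A single mast cell stood apart from the rest. It came from mouse 10, had 25460 UMIs, which were 29.7% of the mast cell UMIs of that mouse, and held 28 Cpa3 UMIs and 1 Kit UMI but none of Mcpt4, Cma1, Tpsb2, Fcer1a or Il1rl1. It carried 203 of the 205 Plac8 UMIs of all mast cells, all 62 Trbc2 UMIs, 40 UMIs of Trbc1 and 29 of Dntt, which encodes the polymerase that adds bases at antigen receptor joins in lymphocyte precursors. Its CD117 antibody count was 14 and its FCeRIa count 0. In this cell the label of mast cell rested on Cpa3 and Kit. It lowers mast cell levels in mouse 10 and is counted in them unless its absence is stated, with values without it where it set a range. Another cell, of mouse 6, held 879 of the 899 UMIs of the hemoglobin gene Hbb-bs.

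The label was checked against basophils, which share the IgE receptor. Among all assigned cells 1 alone had at least 3 UMIs of Mcpt8, a basophil protease, with 380 of them and 815 of Prss34. It had no Kit UMI, so the rule had left it out, with a protease sum of 71. Its CD117 antibody count was 0 and its FCeRIa count 138. Of the mast cells, 1 had a Mcpt8 UMI and 19 had Prss34 UMIs.

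The comparison of genotypes asks whether mast cells were a larger share of the assigned aortic leukocytes in Jak2V617F Myel mice. Mast cells were found in all 5 Jak2V617F Myel mice and in 3 of 5 Jak2WT mice. In Jak2WT mice 1 to 5 they were 0 of 317, 6 of 403 (1.49%), 2 of 575 (0.348%), 0 of 146 and 8 of 654 cells (1.22%). A count of 0 allows a share of up to 0.946% in mouse 1 and 2.05% in mouse 4 when set at 3 cells of the total, and the 2-sided exact 95% intervals reach 1.16% and 2.49%. In mice 6, 8 and 10 with dilation they were 12 of 424 (2.83%), 8 of 417 (1.92%) and 14 of 891 (1.57%). With aneurysm they were 12 of 1009 in mouse 7 (1.19%) and 7 of 1058 in mouse 9 (0.662%). Every mouse with dilation lay above every Jak2WT mouse, and both mice with aneurysm lay within the Jak2WT range. Without the cell that stood apart mouse 10 had 1.46%, just under the 1.49% of mouse 2, so dilation and Jak2WT then overlapped. They also overlapped with HTODemux singlets (1.47% in mouse 10, 1.56% in mouse 2) and at a hashtag ratio of at least 5 (1.501% and 1.56%).

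**Figure D1:**
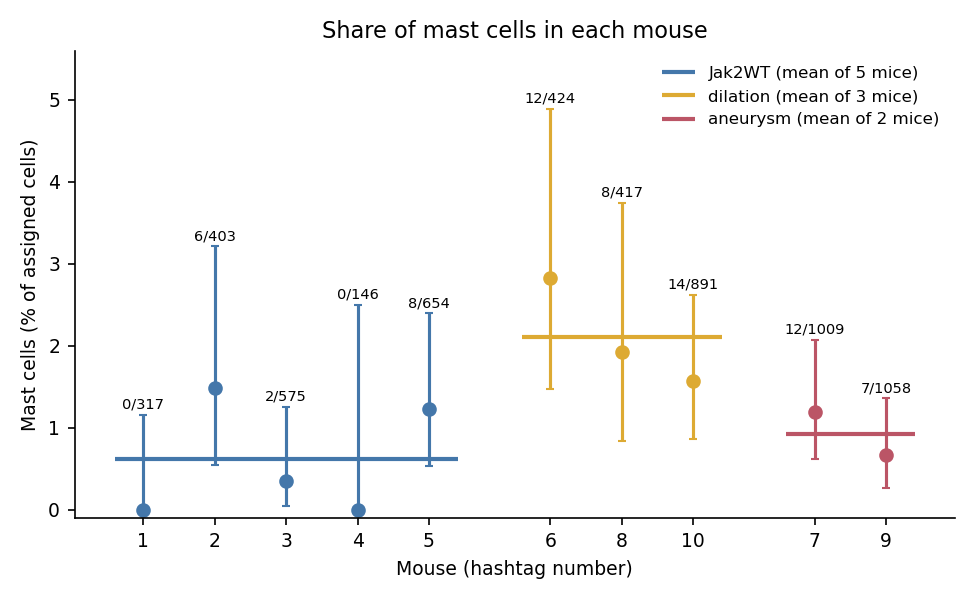
Share of mast cells among the assigned cells of each mouse (percent), with exact 95% binomial intervals (Clopper-Pearson) as bars, numbers of mast cells over assigned cells above them, and horizontal lines at the group means (0.612% in Jak2WT, 2.11% in dilation, 0.925% in aneurysm). The dilation mice sit between 1.57% and 2.83%, all above the Jak2WT mice, but without the cell that stood apart mouse 10 is at 1.46%, under mouse 2 at 1.49%. The bars of most mice overlap.

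The mean share was 0.612% ± 0.700 in Jak2WT (SD, n = 5) and 1.63% ± 0.815 in Jak2V617F Myel (SD, n = 5), a difference of 1.02 points that did not pass the 2-sided exact permutation test (p = 0.0635, adjusted over 3 comparisons 0.0952). The share in dilation was 2.11% ± 0.650 (SD, n = 3), which was 1.49 points above Jak2WT (exact permutation p = 0.0357, adjusted 0.0952, smallest p the design allows 0.0179). The mean in aneurysm was 0.925% (n = 2) against 1.17% in the other 8 mice, 5 Jak2WT and 3 dilation, a difference of -0.247 points (exact permutation p = 0.8). Without the cell that stood apart the first difference was 1.00 points (exact p = 0.0794) and the second 1.46 (exact p = 0.0536).

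The intervals of single mice were wide at these counts: the exact 95% interval ran from 0.548% to 3.21% in mouse 2, from 1.47% to 4.89% in mouse 6 and from 0.266% to 1.36% in mouse 9. They cover counting error only. With cells of at most 5% mitochondrial UMIs, in mast cells and in all others, the differences of 1.07 points for genotype and 1.47 for dilation passed the test (exact permutation p = 0.0159 and 0.0179, both adjusted 0.0268). This limit took away 9 of the 16 Jak2WT mast cells and 10 of the 53 of Jak2V617F Myel mice, whose mitochondrial shares differed as given below, and the part of RNA quality in the gained calls was not tested. As a share of the cells that were not macrophages, which made up 32.5% to 57.8% of the cells of a mouse, the differences were 2.14 and 2.99 points (exact permutation p = 0.0476 and 0.0357, both adjusted 0.0714).

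The level of each gene in mast cells was taken as counts per 1000000 gene UMIs (CPM) in the summed mast cells of a mouse, over the 7 mice with at least 3 mast cells. UMI totals of a gene are over the same mice, and shares of cells are over all 69 mast cells. Since transcripts chose the cells, their levels against all other cells are a description, with no test. Of 20428 genes with a UMI in mast cells or other cells, 1078 (5.28%) had a mean CPM of at least 2 times that of the other cells, 1525 (7.47%) of at most 0.5 times, and 79 (0.387%) of at least 10 times, after 10 CPM was added to both. The median log2 ratio over these genes was -0.02. The gene lists below are counted in the same way, with no filter on low values.

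Granule proteases led the mast cells. In mice 2 and 5 (Jak2WT), 6, 8 and 10 (dilation), 7 and 9 (aneurysm), the chymase Mcpt4 stood at 28985, 32605, 27828, 38668, 19731, 34995 and 30411 CPM, a mean of 30460.2 ± 6011 against 20.9 in other cells. Carboxypeptidase Cpa3 stood at 17356, 18046, 19414, 25090.1, 16181, 20213 and 17465 CPM, a mean of 19109 ± 2960 against 20.2. Mouse 10 was lowest for both, and without the cell that stood apart it had 28076 CPM of Mcpt4 and 22560.4 of Cpa3 and was lowest for neither.

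The chymase Cma1 had 25269 ± 4430 CPM (19742 to 30908; 17.0 in other cells) and the tryptase Tpsb2 17797 ± 3176 (13111 to 22422; 11.9 in other cells). Mouse 10 was lowest for both, with 28092 and 18656 CPM without the cell that stood apart. The tryptase Tpsab1 was at 836 CPM, and Tpsg1, a tryptase held in the membrane, at 223. Mcpt1 and Mcpt2, the chymases of mucosal mast cells, had no UMI in any mast cell, and Mcpt9 and Gzmb had 1 each. Of 13 listed genes for granule proteases, serglycin and the protease inhibitor Serpinb1a, 9 were at least 2 times the level of the other cells and 0 at most 0.5 times, with 4 under 3 UMIs. Cpa3, Mcpt4 and Cma1 together made 7.48% of mast cell UMIs and 0.00582% of those of other cells.

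**Figure D2:**
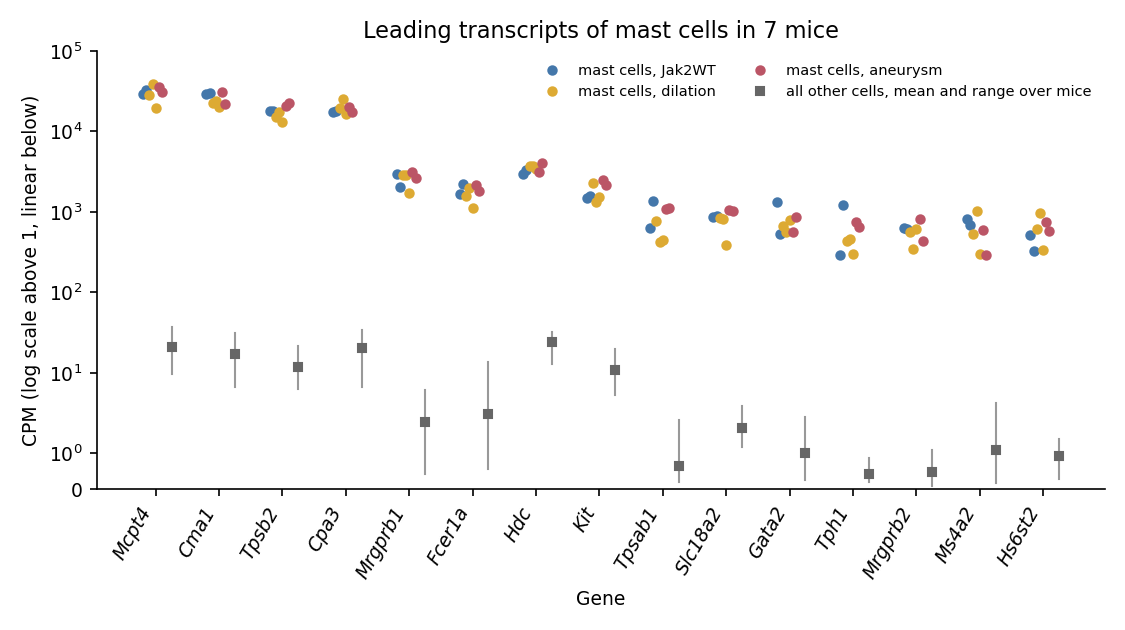
CPM of the 15 transcripts with the largest ratio of mean CPM in mast cells to that in all other cells (y axis logarithmic above 1), with a point for the summed mast cells of each of 7 mice and a gray square and bar for the mean and range of the other cells of those mice. Mcpt4, Cma1, Tpsb2 and Cpa3 lie between 13111 and 38668 CPM, and no mouse's mast cells reach down to the level of other cells for any of the 15.

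UMIs of these genes were also found in other cells. At 1 or more UMI, Cpa3 was in 100% of mast cells (median 2857 UMIs), in 6.61% of macrophages (median 10709.5 UMIs), in 7.26% of B cells, in 5.94% of T cells and in 12.6% of group 2 innate lymphoid cells (ILC2), all of them gates on a few transcripts. With each cell thinned to 1000 UMIs, Mcpt4 was in 97.1% of mast cells and in 1.58% of macrophages, 2.26% of B cells and 1.59% of T cells.

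Genes for making and moving amines were also higher in mast cells, by smaller ratios than the leading proteases. Hdc, the enzyme that makes histamine, had 3454 ± 389 CPM (2951 in mouse 2 to 4024 in mouse 9) against 23.9 in other cells. It was also present in the neutrophil gate, where 57.6% of cells had a UMI at 1000 UMIs, against 89.9% of mast cells. The vesicle transporter Slc18a2 had 839 CPM, the serotonin transporter Slc6a4 590 and Tph1, the first enzyme of serotonin synthesis, 586 ± 326, each against 2.05 or less in other cells. Of 8 genes on the amine list 6 were at least 2 times higher and 2 at most 0.5 times. Of the genes that break down amines, Maob had 226 CPM against 0.432 and was higher in each of the 7 mice, and Hnmt and Maoa had no UMI in them.

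Transcripts for the heparin matrix of the granule were present. Serglycin (Srgn), the core protein, had 3341 ± 370 CPM and 1395 in other cells, as it is made by many leukocytes. The sulfotransferases Hs6st2 (588 CPM against 0.915) and Ndst2 (217 against 9.65) and the chain polymerase Ext1 (318 against 40.6) stood further apart. Of the 11 heparin genes 7 were at least 2 times higher and 1 at most 0.5 times.

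Transcripts of all 3 chains of the IgE receptor were present. The alpha chain Fcer1a, which binds IgE, had 1792 ± 374 CPM (1121 in mouse 10, or 1595 without the cell that stood apart, to 2230.4 in mouse 5) against 3.10 in other cells and was found in 92.8% of mast cells. The beta chain Ms4a2 had 605 ± 262 CPM against 1.12, and the gamma chain Fcer1g, shared with Fc receptors of macrophages, 2115 against 1219. Among signaling genes, the adaptor Lat2 had 607 CPM against 59.8, while Lyn (330 against 217) and Syk (97.9 against 131) were near the level of other cells. Of the 14 genes of the IgE list 8 were at least 2 times higher, 0 at most 0.5 times, and 6 were higher in each of the 7 mice.

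Receptors for other stimuli were among the leading genes. Mrgprb1 had 2585 ± 512 CPM against 2.45 in other cells, and Mrgprb2, the receptor for basic peptides and drugs, 573 ± 148 against 0.470. Il1rl1, the receptor for interleukin 33, had 3044 ± 515 CPM (2195 in mouse 10, or 3123 without the cell that stood apart, to 3724 in mouse 7) against 53.6, and the adenosine receptor Adora3 327 against 0.875. The complement receptors C3ar1 and C5ar1 had 1 and 2 UMIs in all mast cells. Of the 21 measured genes of the receptor list 8 were at least 2 times higher and 5 at most 0.5 times. Cd200r3, a receptor of mast cells and basophils, had 247 CPM against 1.32, while the Fc gamma receptors Fcgr3 (127 against 350.0) and Fcgr2b (122 against 297) were lower than in other cells.

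Kit had 1504, 1582, 2287, 1330, 1529, 2492 and 2128 CPM in mice 2, 5, 6, 8, 10, 7 and 9, with the lowest value in mouse 8 and the highest in mouse 7. The mean was 1836 ± 455 against 10.9 in other cells. At 1000 UMIs per cell Kit was in 85.5% of mast cells, 15.7% of ILC2, 0.343% of macrophages and 0.161% of B cells. Among factors that act with it, Gata2 had 760.4 CPM against 1.02, Mitf 488 against 40.7, Meis2 368 against 2.43, Tal1 157 against 3.59 and Gata1 42.4 against 0.0704. Spi1, which directs macrophage genes, was at 45.6 against 235. Of the 12 genes of this list 7 were at least 2 times higher and 2 at most 0.5 times.

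In the arachidonic acid pathway the prostaglandin D synthase Hpgds had 482 ± 152 CPM against 81.9 and was higher in each of the 7 mice. The 5-lipoxygenase gene Alox5 had 174 against 57.4. Its partner Alox5ap (240 against 646), the leukotriene C4 synthase Ltc4s (33.8 against 294) and the cyclooxygenase Ptgs2 (21.0 against 201) were at most 0.5 times as high. Of the 9 genes 2 were at least 2 times higher and 5 at most 0.5 times.

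The secreted factors divided in the same way. The monocyte attractants Ccl7 and Ccl2 were the most abundant. Ccl7 ran from 1915 CPM in mouse 10 (2725 without the cell that stood apart) to 10240.1 in mouse 2 (mean 4360 ± 3028 against 507), and Ccl2 had 3762 ± 1021 CPM against 1095, with UMIs in 100% of mast cells. At 1000 UMIs per cell Ccl2 was in 89.9% of mast cells, 49.0% of macrophages and 6.29% of B cells. Il4 had 204 CPM against 2.73 with UMIs in 47.8% of mast cells, Il13 82.6 against 12.7 in 21.7%, and Vegfa 161 against 19.0.

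Macrophage products were low: Il1b stood at 49.6 CPM against 1488, Cxcl2 at 224 against 7157 and Ccl4 at 95.7 against 1914. Il5, Il9 and Il33 had no UMI. Of 25 secreted factors 6 were at least 2 times higher and 12 at most 0.5 times, with a median log2 ratio of -0.88.

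Immediate early genes, which rise within minutes of a stimulus and also in the digestion of tissue, were high. Jun had 9851 CPM against 2180.2 in other cells, Egr1 8586 against 1650.0, Fos 6656 against 2325 and the heat shock gene Dnajb1 2135 against 218. Atf3 (68.7 against 1484) and Hspa1a (139 against 1749) were lower. Of 22 such genes 10 were at least 2 times higher, 4 at most 0.5 times, and 12 were higher in each of the 7 mice. The part of the digestion in these levels was not tested.

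Jak2 itself had 13 UMIs in 12 mast cells (39.6 CPM against 59.6 in other cells), and UMI counts of the gene do not say which allele was read. Of the genes induced by STAT factors, Socs2 had 340 CPM against 16.8 and was higher in each mouse, Pim1 200.1 against 659, and Socs3 had 1 UMI against a level of 238 CPM in other cells. The JAK-STAT list had 2 of 21 genes at least 2 times higher and 5 at most 0.5 times. Lyz2, the gene whose promoter drives Cre in these mice, had 129 ± 65.3 CPM in mast cells and 5140 in other cells. At 1000 UMIs it was in 13.04% of mast cells, 18.5% of B cells, 15.2% of T cells and 93.7% of macrophages, so the share in mast cells was at the level of lymphocytes. Whether the mast cells carried the recombined allele was not tested.

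Of the genes for proteases that remodel the vessel wall and their inhibitors, the lysosomal protease Ctsd was the most abundant at 861 CPM against 569.8 in other cells. Mmp2, Mmp9, Mmp12 and Ctsk had no UMI in the mast cells, Adamts9 had 148 CPM against 0.472, the plasminogen activator Plau 107 against 35.6, and the inhibitor Timp2 243 against 477. Of 20 genes on the matrix list 2 were at least 2 times higher and 7 at most 0.5 times.

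Markers of other leukocytes were low in the mast cells. The 12 macrophage markers summed to 416 ± 134 CPM (245 to 608) against 13409 in other cells. C1qa, C1qb and C1qc of this list were capped by the rule, at 68.0, 86.9 and 37.5 CPM against 2818, 2719 and 1925, so the sum was in part set by it. Of the markers that the rule did not use, Pf4 was the most abundant at 129.8 CPM against 1813, Mrc1 had 31.8 against 859 and Fcgr1 was at 0. At 1000 UMIs Pf4 was in 13.04% of mast cells, 8.23% of B cells and 6.08% of T cells. B cell markers summed to 82.9 CPM, led by Ighm at 56.9, with Cd79a at 0 by the rule. Neutrophil markers summed to 38.6 CPM against 1624, with Retnlg, Cxcr2 and Ly6g at 0. T cell markers summed to 107 CPM, and all of it came from mouse 10 (747 CPM), the mouse of the cell that stood apart, with Trac, Cd4 and Cd8a at 0 and Cd3e at 0 by the rule.

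Single mast cells differed in how much of their RNA was protease. Per 10000 UMIs, Mcpt4 ran from 0 to 695 (median 285), Cpa3 from 11 to 468 (median 176) and Kit from 0.393 to 45.4 (median 17.8). The cell that stood apart gave the lowest values of Cpa3 and Kit, and without it they were 31.4 and 3.76. The 69 cells include the cell that stood apart, share a run and differ in depth. Over them Spearman's rho was 0.60 between Cpa3 and Mcpt4 and 0.702 between Tpsb2 and Mcpt4. It was 0.221 between Mcpt4 and Cma1 and 0.0675 between Cpa3 and Cma1. Pearson's r on the log2 scale was 0.563, 0.653, 0.501 and 0.527 for these pairs in the same order. The contrast between the pairs thus differed between rho and r. The cell that stood apart had no Mcpt4 or Cma1 UMI, and its part in these values was not tested. Spearman's rho was 0.0696 between the Kit transcript and the CD117 antibody and 0.124 between Fcer1a and the FCeRIa antibody. The CD117 and FCeRIa antibodies had a rho of 0.593.

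The antibody counts did not enter the rule and ask whether the surface of these cells was that of mast cells. CD117 averaged 150, 80.5, 169, 118, 156, 180.3 and 282 counts per mast cell in mice 2, 5, 6, 8, 10, 7 and 9, and between 0.741 and 1.58 counts per other cell. FCeRIa averaged 18.3, 16.0, 18.1, 21.6, 18.9, 42.6 and 12.1 counts per mast cell, and between 0.386 and 2.21 per other cell. The groups did not overlap for either antibody. The mean difference was 161 ± 62.5 counts for CD117 and 20.03 ± 10.2 for FCeRIa (SD, n = 7), higher in 7 of 7 mice by the exact sign-flip permutation test (2-sided p = 0.0156 for each, the smallest that 7 mice allow).

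Cell by cell, CD117 ran from 10 to 519 counts in mast cells (median 132), and 68 of 69 were above 12 counts, the 99th percentile of the other cells. The 68 include the cell that stood apart, at 14 counts. FCeRIa divided the cells less well. It ran from 0 to 107 counts in mast cells (median 17), and 52 of 69 were above 7 counts, the 99th percentile of the other cells. Among the 5825 other cells 83 had 10 or more CD117 counts and 2 reached the median of the mast cells, both in the macrophage gate.

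Across the panel, 41 of 73 antibodies with counts (56.2%) passed edgeR's quasi-likelihood test with mouse as a covariate and Benjamini-Hochberg adjustment, 14 higher (19.2%) and 27 lower (37%) in mast cells. The scaling set the balance of directions. With counts per cell 55 passed (75.3%), 9 higher (12.3%) and 46 lower (63%), and with total counts without TMM 66 passed (90.4%), 8 higher (11%) and 58 lower (79.5%). Without the cell that stood apart 42 passed (57.5%), 14 higher and 28 lower (38.4%). The median log2 change over all antibodies was -0.43 by TMM, -1.88 per cell and -2.91 by total counts. The antibodies to CD117, CD43, CD44, CD55, CD63, FCeRIa, IL1RL1 and MGL1 were higher under all 3 scalings, and 27 were lower under all 3. The 27 include the hamster isotype control, an antibody without a target (log2 change -3.08 by TMM, edgeR adjusted p = 0.0158). A call among the lower antibodies thus does not by itself show less antigen on mast cells.

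Among the antibodies that passed, the largest rises were those of CD63, CD117, IL1RL1, FCeRIa and CD43. CD63, a tetraspanin of granule and lysosome membranes that reaches the surface when granules fuse, had 1356, 280.0, 1557, 3317, 2393, 2008 and 2933 counts per mast cell in mice 2, 5, 6, 8, 10, 7 and 9, against 3.66 to 15.9 per other cell. It was lowest in mouse 5 and highest in mouse 8, and its log2 change was 9.59 ± 0.768 (SE, edgeR adjusted p = 2.3e-10). The change was 8.47 ± 0.468 for CD117, 8.45 ± 0.458 for IL1RL1, 5.76 ± 0.549 for FCeRIa and 4.14 ± 0.412 for CD43, the sialomucin of leukocytes. IL1RL1, the receptor for interleukin 33, averaged 33.6 ± 8.58 counts per mast cell, 0.253 per other cell and 1.21 in ILC2, which also carry it.

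**Figure D3:**
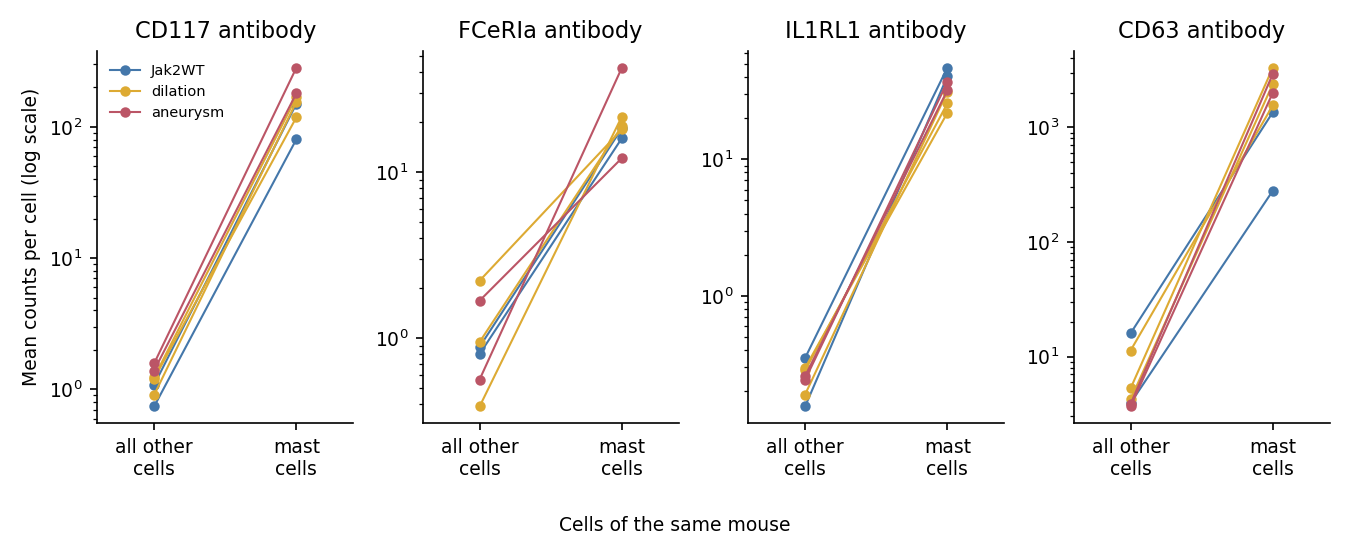
Mean counts per cell of 4 antibodies (log scale) in all other cells and in mast cells, with a line joining the values of the same mouse for 7 mice, colored by group. Every line rises, and CD63 reaches from 280.0 counts in mouse 5 to 3317 in mouse 8.

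Among those that passed, the 5 largest falls were those of CD11c, CD11b, CD4, CD5 and IAIE. CD11b, the integrin of macrophages and neutrophils, averaged 7.63 counts in mast cells and 290 in other cells, with a log2 change of -3.83 ± 0.411. CD11c fell by 3.88, CD4 by 3.82 and IAIE, the MHC class II antibody, by 3.55 on the log2 scale. CD5, a T cell antigen, fell by 3.80, and without the cell that stood apart its log2 change was -4.49. Against macrophages alone, with that cell counted, the change was -0.83 (edgeR adjusted p = 0.368).

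CD63 divided the mast cells. It made 64.9% of their antibody counts and 0.392% of those of other cells, whose median was 1 count and whose 99th percentile was 26. Of the 68 mast cells without the cell that stood apart, 11 had 11 to 70 CD63 counts and 57 had 165 to 8159. The limit of 100 counts was chosen after the values were seen, and 2 cells lay between 50 and 200. The low cells were 2 of 6 in mouse 2, 3 of 8 in mouse 5, 4 of 12 in mouse 6 and 2 of 12 in mouse 7, and there were none in mice 3, 8, 9 and 10.

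The low cells and the others are described by medians, with no test. Per 10000 UMIs, the median of the 3 proteases, which the rule used, was 722 in the low cells and 757 in the others, and that of the Cd63 transcript 8.18 and 10.9. The median mitochondrial share was 7.49% in the low cells and 2.12% in the others, and the median depth 1918 and 3153 UMIs. Egr1 had a median of 11.8 per 10000 UMIs in the low cells and 93.0 in the others, and the median CD117 count was 180 and 119. Over the 68 cells, which share a run, Spearman's rho of CD63 was -0.471 with the mitochondrial share and 0.571 with Egr1. The part of RNA quality in the CD63 counts was not tested.

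**Figure D4:**
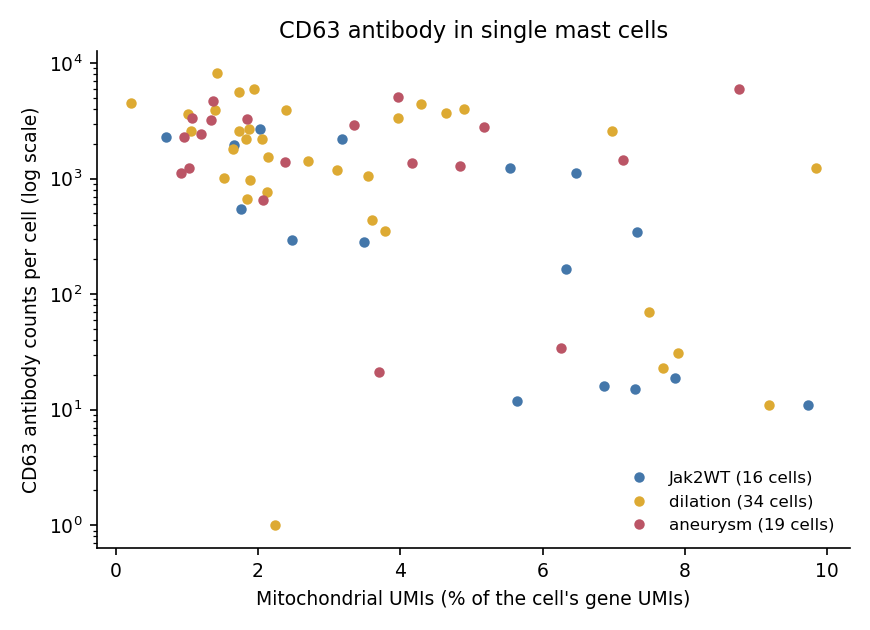
CD63 antibody counts (log scale) of single mast cells against the share of their UMIs that was mitochondrial (percent), 69 cells colored by group. Of the cells without the one of mouse 10 at 1 count, 57 lie at 165 counts or more, and the 11 with 11 to 70 counts lie at 3.70% to 9.73% mitochondrial UMIs.

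The comparison of mast cell transcripts asks whether those of Jak2V617F Myel mice differed from those of Jak2WT mice. It used 5 Jak2V617F Myel mice and the 2 Jak2WT mice with at least 3 mast cells, of 6 and 8 cells. RNA quality differed between these mice. The median mitochondrial share per mast cell was 4.36% and 6.89% in mice 2 and 5, and 3.0%, 1.94%, 2.18%, 2.71% and 2.38% in mice 6, 8, 10, 7 and 9. The 2 groups did not overlap (means 5.62% and 2.44%, exact permutation p = 0.0476, the smallest this design allows). The 2 mast cells of Jak2WT mouse 3, which did not enter the fits, had a median of 1.23%, below every Jak2V617F Myel mouse. Median UMIs were 2557 and 2580 in the Jak2WT mice and 2763 to 4136 in the others (exact permutation p = 0.0952).

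Of 600 transcripts tested by edgeR's quasi-likelihood test, 0 passed an adjusted p of 0.05 (0%), 52 had an unadjusted p under 0.05 (8.67%), and 88 had mice that did not overlap between genotypes (14.7%). DESeq2 also called 0, with 32 under an unadjusted p of 0.05. The 5 genes of smallest p in each direction are given as values that did not pass. CPM in the comparisons of genotype and aneurysm are scaled by TMM and so differ slightly from those above. The immediate early factor Egr3 stood at 283 and 365 CPM in mice 2 and 5, and at 1983, 904, 1039.9, 1092 and 1647 in mice 6, 8, 10, 7 and 9. All 5 Jak2V617F Myel mice lay above both Jak2WT mice, with a log2 change of 2.01 ± 0.479 (edgeR adjusted p = 0.129).

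The forkhead factor Foxp1 stood at 226 and 122 CPM in the Jak2WT mice and at 668, 731, 525.6, 901 and 928 in the others, a log2 change of 2.12 ± 0.541 (edgeR adjusted p = 0.129). Egr1, an immediate early factor, had 5938 and 5154 CPM against 9665, 13254, 6422, 9445 and 10359, a change of 0.82 ± 0.269 (edgeR adjusted p = 0.340). Neither gene's mice overlapped. The kinase Cdk11b (2.83 ± 0.817) and Kmt2e (1.66 ± 0.586) were the other 2 with higher values.

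Without the cell that stood apart, Egr3 (2.13) and Foxp1 (2.21) passed with an edgeR adjusted p of 0.0459 each, 2 of 601 genes (0.333%), and 82 had an unadjusted p under 0.05. Each of these 2 genes gained a call in 2 of 16 alternatives, this one among them, and the other 14 left it without a call. Egr3 had a median of 0 per 10000 UMIs in the 11 cells low in CD63, which had the higher mitochondrial shares, and 9.74 in the others, and 5 of those 11 were Jak2WT. The part of RNA quality in the Egr3 and Foxp1 values was not tested. With cells of at most 5% mitochondrial UMIs, Egr3 had a log2 change of 1.85 and Foxp1 one of 1.74. This limit left 1 Jak2WT mouse, so whether the genes pass is not read from that fit. With mouse 3 and its 2 mast cells in the fit, the change was 1.84 for Egr3 (edgeR adjusted p = 0.136) and 0.60 for Foxp1 (edgeR adjusted p = 0.952).

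The 5 with lower values were Hspe1, mt-Cytb, Tmsb4x, mt-Atp6 and Hes1. Hspe1, a chaperone of mitochondria, stood at 452 and 852 CPM in the Jak2WT mice and at 209, 104, 229, 273 and 149.7 in the others (log2 change -1.72 ± 0.445, edgeR adjusted p = 0.129). The mitochondrial gene mt-Cytb had 4468 and 4910.3 CPM against 1844 to 3194 (-0.98 ± 0.264, edgeR adjusted p = 0.142). Of 13 mitochondrial genes 10 were tested, and all 10 had lower values in Jak2V617F Myel (median log2 change -0.78, 7 at an unadjusted p under 0.05), against a median of 0.03 over all 600 genes.

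**Figure D5:**
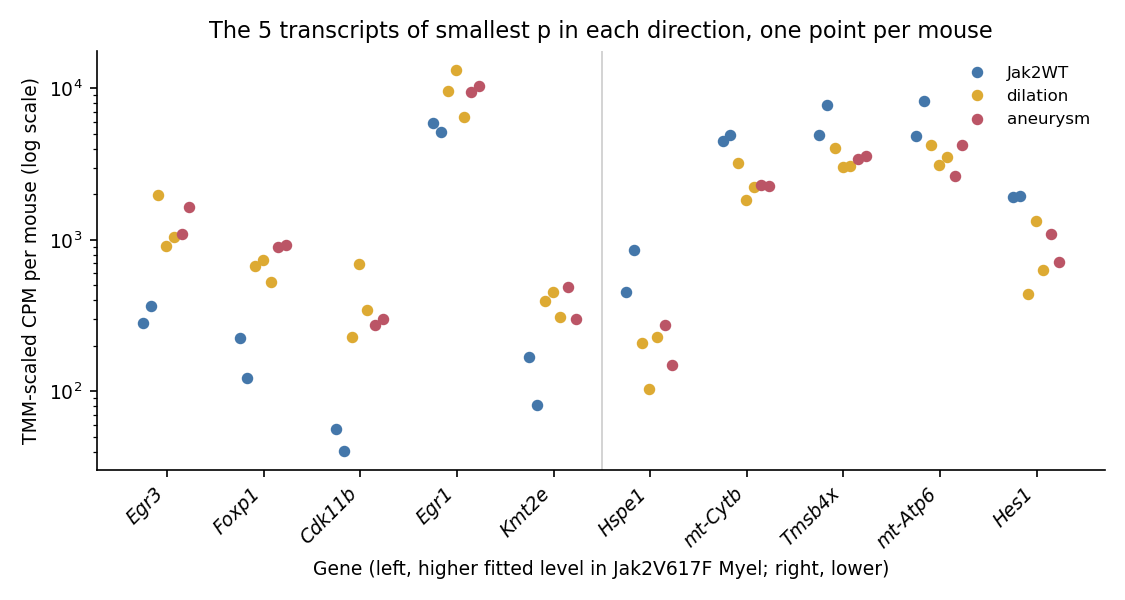
TMM-scaled CPM (log scale) of the 5 transcripts of smallest p in each direction between genotypes, with a point for the summed mast cells of each of 7 mice. Jak2WT points lie below the others for the 5 genes on the left, such as Egr3 at 283 and 365 CPM against 904 to 1983, and above them for the 5 on the right, and none of the 10 passed the adjusted test.

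Mast cell genes that the rule did not use did not pass a test between genotypes. The log2 change was 0.01 ± 0.232 for Tpsb2 (edgeR adjusted p = 0.995), -0.18 ± 0.321 for Fcer1a (0.938) and 0.22 ± 0.266 for Hdc (0.899). Of 5 amine genes 2 had higher values in Jak2V617F Myel (median log2 change -0.10), of 6 IgE receptor genes 1 (median -0.26), and of 20 immediate early genes 9 (median -0.01, 4 at an unadjusted p under 0.05). Over all 600 genes tested, 310 had higher values. The 4 secreted factors tested all had lower values (median -0.55, 2 at an unadjusted p under 0.05, or 1 without the cell that stood apart). Ccl2 among them stood at 5655 and 4383 CPM in the Jak2WT mice and at 2685 to 3623 in the others, without overlap (log2 change -0.63 ± 0.252, edgeR adjusted p = 0.490). No macrophage, lymphocyte or neutrophil marker reached the level needed for the test.

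The aneurysm was compared next, mice 7 and 9 against the other 5, which shares its mice with the comparison of genotypes. Both aneurysm mice were Jak2V617F Myel, while the other 5 mixed dilation mice with Jak2WT mice 2 and 5, of higher mitochondrial shares. The comparison does not separate severity from genotype or RNA quality. Of 600 transcripts 0 passed edgeR's test (0%), 16 had an unadjusted p under 0.05 (2.67%) and 47 had mice that did not overlap (7.83%). DESeq2 called 0, with 9 under an unadjusted p of 0.05. The smallest p was that of Glul, glutamine synthetase, at 682 and 1916 CPM in mice 7 and 9 and at 339, 731, 313, 522 and 309 in mice 2, 5, 6, 8 and 10. Mouse 5 lay above mouse 7, and the log2 change was 1.59 ± 0.432 (edgeR adjusted p = 0.484). Without mouse 9 the change was 0.66.

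The Cd63 transcript stood at 1392 and 1946 CPM with aneurysm and at 651 to 1217 in the others (log2 change 0.83 ± 0.353, edgeR adjusted p = 0.978). Among lower values, Rgs2, a brake on G protein signaling, had 437 and 269 CPM against 689 to 1794 (-1.57 ± 0.473, edgeR adjusted p = 0.645). Its highest mouse was 10, where the cell that stood apart held 100 of the 279 Rgs2 UMIs of all 7 mice. Other genes of small p, Cd47 and Prkcb with higher values and Crip1, Sub1 and Rhob with lower ones, had log2 changes of -1.27 to 1.10.

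For surface antibodies between genotypes, 0 of 72 passed edgeR's test (0%), 5 had an unadjusted p under 0.05 (6.94%) and the mice did not overlap for 9 (12.5%). CD63 stood at 1356 and 280.0 counts per mast cell in the Jak2WT mice and at 1557 to 3317 in the others, without overlap, with a log2 change of 1.52 ± 0.580 (edgeR adjusted p = 0.401). DESeq2 called CD63 alone (1.63, adjusted p = 0.0186), with 6 antibodies under an unadjusted p of 0.05. The CD24 antibody had a log2 change of -1.74 ± 0.556, CD226 -2.10 ± 0.842, IL1RL1 -0.83 ± 0.309 and CD137L 3.59 ± 1.24, none of which passed. The mice did not overlap for IL1RL1 and CD137L but did for CD24 and CD226. CD137L had 109 and 61.3 TMM-scaled CPM of antibody counts in mice 2 and 5, and 138 to 3148 in the others. The lowest antibody values above 0 were 54.5 CPM in mouse 2 and 61.3 in mouse 5. The CD137L change thus rested on Jak2WT values near the floor. CD226 was also low, at 109 CPM in mouse 2 and 53.6 to 305 in the Jak2V617F Myel mice. The highest CD226 value was that of mouse 5, and mouse 2 lay within the range of the Jak2V617F Myel mice. CD24 rested on mouse 5, without which its change was 0.51, and at most 5% mitochondrial UMIs, with 1 Jak2WT mouse left, gave 0.29 for CD24 and 0.80 for IL1RL1. Of the mice in the fit, those with lower CD63 also had the higher mitochondrial shares, as given above. Jak2WT mouse 3, outside the fit, had 547 and 2313 CD63 counts in its 2 mast cells at a median of 1.23% mitochondrial UMIs. The part of RNA quality in the CD63 difference was not tested.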

How the data were processed

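Transcripts, surface antibodies and hashtags were read in 1 pooled 10x run of sorted aortic leukocytes from 10 mice. The authors deposited UMI counts per barcode, whole and not normalized, for 32285 genes, 75 antibodies (73 with counts) and 10 hashtags, made with Cell Ranger on mm10. The authors called hashtags with Seurat and left out cells over 10% mitochondrial transcripts. Their cell labels were not used here. No column of values was left unmapped (0).

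Cells were assigned and chosen as given in the report, and hashtag ratios stood in for a doublet caller. Macrophages, B cells, T cells, ILC2 and neutrophils are gates on UMIs. The members and lists were chosen with earlier results of these data known.

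Counts were summed per mouse over at least 3 mast cells and tested in R 4.3.3 with edgeR 4.0.16 (filterByExpr, TMM, quasi-likelihood, Benjamini-Hochberg at 0.05), with DESeq2 1.42.0 as an alternative. Single values were tested by exact permutation over mice (scipy 1.17.1). Mast cells and other cells of a mouse share an animal, so mouse was a covariate there. Alternatives changed the hashtag, mitochondrial, protease and Kit limits, scaling, filter and mice. Ratios of CPM used 10 CPM as pseudocount, and shares of cells with a UMI were also computed after thinning to 1000 UMIs. The steps were tested on simulated data. Named genes are those of the lists, the 15 of largest ratio, called genes (or the 5 of smallest p in each direction) and antibodies called or with the 5 largest changes in each direction. CD63, CD24, CD226, IL1RL1 and CD137L between genotypes were named after their values were seen, as were the genes of the cells that stood apart. Intervals cover counting error only. A few genes that the rule names are not reported here.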

Additional observations from a re-analysis of the deposited data

Results flagged for a closer look

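CD5 antibody counts per mast cell in the Jak2V617F Myel mice were 4.93 in mouse 10 and 0.125 to 0.667 in the other 4, which set mouse 10 apart by the gap to its neighbor over the range of the group. Mouse 10 is the mouse of the cell with Trbc2, Dntt and Plac8 transcripts, and without that cell its value was 0.308. Of 30 groups looked at in this way, 1 stood out, and chance gives about 1 in 20.

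Among the 2577 barcodes that were not assigned to a mouse or did not pass the limits on quality, 9 (0.349%) met the transcript criteria for mast cells. Of these, 5 had a hashtag ratio under 3, 4 had more than 10% mitochondrial UMIs and 2 had fewer than 1000 gene UMIs (a barcode can be counted under more than 1 of these limits).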

How the results depend on the processing

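Leaving out each mouse in turn gave share differences of 0.723 to 1.27 points between genotypes, 1.13 to 1.76 for dilation and -0.511 to 0.0168 for aneurysm, which changed sign without mouse 9. Depth differences were 576.75 to 920.1 UMIs, mitochondrial ones -4.45 to -1.92 points and antibody ones -121.5 to 2034.5 counts, negative without mouse 5. The CD117 difference was 141 to 175 counts, that of FCeRIa 16.4 to 21.6, and 38 to 41 antibodies passed between mast and other cells. At most 5% mitochondrial UMIs gave the genotype and dilation shares of 1.07 and 1.47 points, past the test.

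For transcripts between genotypes, edgeR called 6 without a filter on low counts and 2 without the cell that stood apart, against 0, and 0 without any 1 mouse. For aneurysm it called 5 without the filter, all lower and all genes of the few cells that stood apart (Plac8, Trbc2, Hbb-bs, Hba-a1 and Hba-a2). For antibodies between genotypes DESeq2 called 1, and leaving out a Jak2V617F Myel mouse gave 0. Without mouse 2, which left mouse 5 as the only Jak2WT mouse, CD24 had a log2 change of -2.54. No call is read from that fit, since the other group alone gives its spread. Total antibody counts gave 66 calls for mast cells against others. The fit without mouse as a block, the pairing of cells of the same animal, gave 41, as did the fit with it. Changes of sign were mt-Cytb 0.20, mt-Atp6 0.17, CD24 0.29 and IL1RL1 0.80 at most 5% mitochondrial UMIs, and CD24 0.51 without mouse 5. The limit of 5% acts on the mitochondrial genes themselves and left 1 Jak2WT mouse with 3 cells, so nothing is read from their signs there. Of the 14 antibodies higher by TMM in mast cells, 3 were below 0 per cell (CD49d, PIRAB and Sirpa) and 4 by total counts (these and ICAM1). The immediate early genes had 9 of 20 higher values (median -0.01) between genotypes with the cell that stood apart and 11 of 20 (median 0.09) without it. The other named transcripts and antibodies that were refitted, CD226 not counted, kept their direction. The settings on members with a Mcpt4 or Cma1 UMI, on cells that are not macrophages and on 5% mitochondrial UMIs for the fits across genes were chosen after seeing the data. With 2 Jak2WT mice of 6 and 8 mast cells in the fits across genes, depth limits them.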
